A study of Mus musculus with 594 samples.

Results

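The cytosolic ribosomal protein genes encode the proteins of the large and small subunits of the ribosome that translates nuclear messages. They were taken by symbol: Rpl or Rps followed by a digit, Rplp, or Rpsa, without the Rps6k kinases and without names ending in -ps. Where several probe sets named a gene and no other, the brightest on average was used. This gave 69 genes of 11807 in the table. They comprise 37 proteins of the large subunit, 23 of the small subunit, 3 stalk proteins and 6 paralogs of core proteins. Rpl5 was reached only by probe sets that also name another gene, and Rps3, Rps27, Rps19bp1 and Rpl10l are not analysed here.

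RNA was profiled on 594 arrays of the mouse lines αTC1 (299 arrays) and βTC3 (295 arrays), which grew from islet tumours of transgenic mice and serve as models of glucagon-producing and insulin-producing cells. Cells were seeded 24 h before 1 of 29 compounds or the solvent DMSO was added, and were harvested 1, 6 or 24 h later. Of the groups of 1 compound, line and time, 168 hold 3 arrays, 5 hold 2 and 1 holds 4. DMSO has 14 arrays at each time in αTC1 cells, and 12, 10 and 12 arrays at 1, 6 and 24 h in βTC3 cells. In both lines the tumour came from a viral T antigen transgene, driven by the glucagon gene promoter in αTC1 and by the insulin gene promoter in βTC3 cells, which compound and DMSO groups share.

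Classes of histone deacetylase inhibitor were described as groups. The hydroxamic acids were trichostatin A at 0.22 µM, SAHA at 1.3 µM, LBH-589 at 0.015 µM, PXD101 at 2.4 µM, ITF-2357 at 10 µM, CRA-024781 at 1.5 µM, pyroxamide at 10 µM and scriptaid at 2 µM. The ortho-amino anilides were MS-275 at 2.9 µM, CI-994 at 10 µM and MGCD-0103 at 1.1 µM. The cyclic tetrapeptides were apicidin at 1.4 µM and HC-toxin at 0.12 µM. Outside these classes were chaetocin at 1.7 µM and BIX-01294 at 10 µM, which inhibit histone lysine methyltransferases, 5-azadeoxycytidine and zebuarine at 10 µM, which inhibit DNA methylation, and AMI-1 and RG-0108 at 10 µM. The remaining compounds have code names: BRD-A94377914 at 3 µM, BRD-K17311666 at 4.3 µM, BRD-K22912318 at 5 µM, BRD-K62233722 at 3.7 µM, BRD-K90919562 at 4.1 µM, BRD-K92415738 at 3.2 µM, BRD5298, BRD8451 and BRD9773 at 10 µM, and BRD6929 at 0.91 µM.

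Each line is a single tumour culture, so αTC1 against βTC3 compares 2 cultures and not islet cell types at large. Nothing in the labels says that the replicates came from separate cultures, so p-values measure only the spread between these arrays, which may be technical. Gcg, the glucagon gene, averaged 12.43 on the log2 intensity scale in DMSO-treated αTC1 cells and 9.24 in βTC3 cells, and Ins2 averaged 4.53 in αTC1 cells and 13.24 in βTC3 cells. The alpha cell gene Irx2 was at 8.71 in αTC1 cells and 5.09 in βTC3 cells, and the beta cell gene Pdx1 at 4.09 in αTC1 cells and 9.37 in βTC3 cells. Slc2a2, the beta cell glucose transporter, was dim in both lines (2.88 and 3.04), and the delta cell hormone Sst was at 4.13 in αTC1 cells and 12.70 in βTC3 cells. Ppy and markers of stromal, endothelial, blood, duct and acinar cells lay between 2.69 and 3.495. In these bulk samples, fewer cells and less RNA per cell cannot be told apart, and every value is relative to the rest of the RNA on its array.

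Ribosomal proteins are made in large and matched amounts, since each ribosome holds 1 copy of most of them and growing cells spend much of their translation on ribosomes. Their genes are controlled together, by promoters with a pyrimidine-rich start and binding sites of general activators, and their messages are translated under control of mTOR through a run of pyrimidines at the very 5′ end. Some members have paralogs that can replace them, and several, Rpl5 and Rpl11 among them, bind Mdm2 and stabilise p53 when ribosome assembly fails.

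The start sites of 6 genes on which the results turn are shown because they carry, or lack, a pyrimidine run at or beside the annotated start. RefSeq promoters on build GRCm38.p6 were found for 56 of the 69 genes (81.2%). A run of at least 6 C or T letters that touched the 10 letters on either side of the annotated start was present in 33 of the 56 (58.9%), against 8833 of 27025 genes in the RefSeq promoter table (32.7%). The motif CTTCCGG, searched on both strands over 250 bases before to 50 after the start, was in 25 of 56 (44.6%), against 2683 of all genes (9.93%). A match describes letters and is no evidence of use. Each line below runs 5′ to 3′ on the gene's strand, from 70 bases before the start through the first 20 transcribed bases, and capitals mark the pyrimidine run.
Rps10 at chr17:27635225-27635314, minus strand: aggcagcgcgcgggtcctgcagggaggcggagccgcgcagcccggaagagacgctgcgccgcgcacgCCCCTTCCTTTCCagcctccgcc
Rpl13a at chr7:45128726-45128815, minus strand: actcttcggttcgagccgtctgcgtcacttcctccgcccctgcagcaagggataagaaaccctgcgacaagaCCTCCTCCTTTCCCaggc
Rplp2 at chr7:141447581-141447670, plus strand: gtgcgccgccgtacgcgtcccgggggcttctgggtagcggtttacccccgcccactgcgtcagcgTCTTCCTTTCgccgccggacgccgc
Rpl22l1 at chr3:28805438-28805527, plus strand: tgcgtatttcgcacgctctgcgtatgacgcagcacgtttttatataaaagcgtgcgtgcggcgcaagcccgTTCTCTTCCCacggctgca
Rps27l at chr9:66946016-66946105, plus strand: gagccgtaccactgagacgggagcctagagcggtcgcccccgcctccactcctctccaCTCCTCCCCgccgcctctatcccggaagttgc
Rpl7l1 at chr17:46782637-46782726, minus strand: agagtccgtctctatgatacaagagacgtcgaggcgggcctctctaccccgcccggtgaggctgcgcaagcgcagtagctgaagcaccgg
The run was 13 letters long in Rps10, 14 in Rpl13a, 10 in Rplp2 and Rpl22l1 and 9 in Rps27l, where it lay wholly before the annotated start, and Rpl7l1 had none.

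On these arrays the ribosomal protein genes lay near the top of the range. Their mean log2 intensities ran between 2.76 and 12.68 with a median of 11.76, and 63 of the 69 averaged above 10, while the highest value of any gene was 13.74 and the median probe set of an array lay between 4.36 and 4.73. A set of genes so bright may be compressed, and the part of compression in the changes below was not tested. The exceptions were Rpl3l at 2.76, a form of Rpl3 known from muscle, Rpl39l at 3.30, a form of Rpl39 known from testis, Rpl14 at 5.95, and the paralogs Rpl7l1 at 7.47, Rps27l at 9.55 and Rpl22l1 at 9.74. Rpl14 encodes a core protein of the large subunit, so its dim probe set stands apart from the genes of the same complex. The median residual SD was 0.0935 for the ribosomal protein genes and 0.168 for all genes.

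The genes did not move as 1 block from array to array. Over the 594 arrays, the correlation between 2 of the 63 genes with a mean above 10 lay between -0.77 and 0.91 with a median of 0.20 over 1953 pairs, a description over arrays that share lines and plates. One set of arrays stood apart. The titles end in a code with a number from 1 to 9 and a position, which is read here as an array plate, although the labels do not use that word. On plate 1, which holds 65 arrays, the median difference of the 69 genes from the other plates was -0.11 in αTC1 cells and -0.10 in βTC3 cells. The same 7 genes lay lower there by at least 0.5 in both lines. Rpl11 averaged 10.25 on plate 1 against 11.05 on the others in αTC1 cells, and 10.12 against 10.96 in βTC3 cells. Rps15, a small-subunit protein, averaged 10.75 against 11.51 in αTC1 cells and 10.50 against 11.38 in βTC3 cells. The other 5 were Rpl12, Rpl13a, Rpl36a, Rps9 and Rps25, of which Rps9 and Rps25 were chosen after their values were seen. The tests carry the batch that the titles number as a term, and for the classes counts with a term for the plate, an alternative chosen after seeing the data, are given as well.

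**Figure D1:**
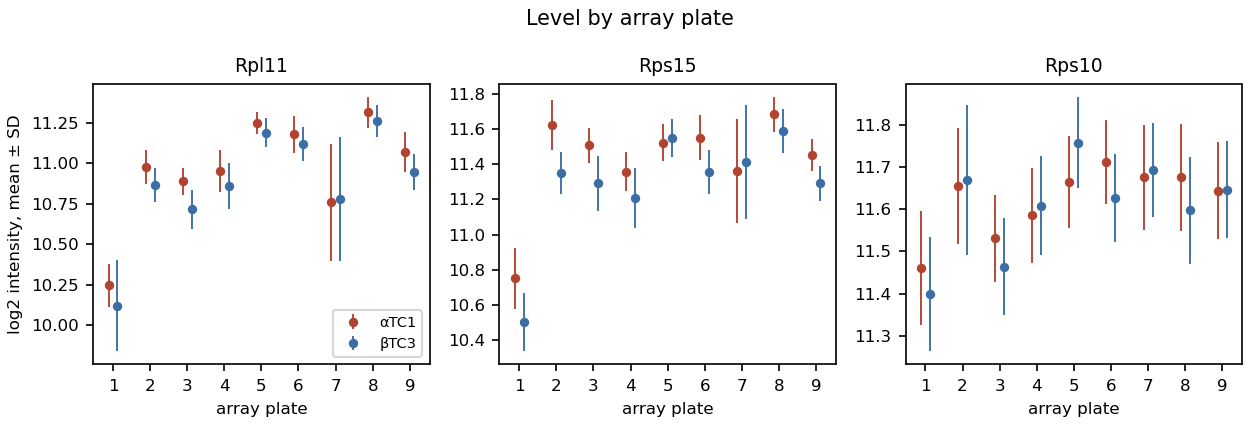
Mean log2 intensity (y axis) of Rpl11, Rps15 and Rps10 by plate number (x axis, plates 1 to 9) in αTC1 and βTC3 cells, with bars of 1 SD over all arrays of a plate. Rpl11 and Rps15 are lowest on plate 1 in both lines (10.25 and 10.75 in αTC1 cells), and Rpl11 is spread widely on plate 7 (SD 0.36 in αTC1 cells).

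Without any compound, most of the genes were brighter in αTC1 than in βTC3 cells. At 24 h in DMSO, 43 of 69 were higher and 11 lower in αTC1 cells (limma, Benjamini-Hochberg adjusted p under 0.05), against 31.8% higher and 29.5% lower of all 11807 genes. The median difference was 0.20 against 0.02 for all genes. Scaling the arrays by quantiles gave 39 higher and 16 lower, and the plate term 46 and 10.

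Core proteins of both subunits and a paralog were among the genes that differed most. Rpsa, which also serves as a laminin receptor, averaged 12.13 ± 0.14 in αTC1 cells and 11.09 ± 0.22 in βTC3 cells (SD, n = 14 and 12), a difference of 1.03 ± 0.057 (SE, adjusted p = 3.04e-27). Rps19, needed to mature the small subunit, differed by 0.95, the paralog Rpl22l1 by 0.93 and Rpl13a by 0.89. The dim Rpl14 probe set differed most, by 2.67 ± 0.082. In the other direction, Rpl15 differed by -0.65 ± 0.033 (adjusted p = 1.62e-29), Rps24 by -0.60 ± 0.041 and Rpl10 by -0.43 ± 0.033. In DMSO at 24 h against 1 h, no gene rose and 1 fell in αTC1 cells, and none rose and 6 fell in βTC3 cells (6.34% and 9.82% of all genes passed in either direction). With the plate as a term none passed in αTC1 cells and 14 fell in βTC3 cells.

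Against DMSO of the same line and time, the 29 compounds gave 4002 comparisons of a ribosomal protein gene at each time over both lines. None passed at 1 h, where 0.0635% of all gene comparisons did. At 6 h, 244 passed (144 higher, 100 lower), or 6.1% against 21.4% of all gene comparisons. At 24 h, 600 passed (340 higher, 260 lower), or 15% against 19.8%. With the plate as a term, the counts were 256 at 6 h (186 higher, 70 lower), or 6.4%, and 788 at 24 h (444 higher, 344 lower), or 19.7%. Every share of all genes that passed, here and below, comes from fits without the plate term. Those shares are therefore no background for the counts with the plate term. All compounds of a line and time share the same DMSO arrays.

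The changes were small. Only 1 comparison at 6 h and 1 at 24 h reached 2-fold, both Rpl7l1 with chaetocin in αTC1 cells, and 19 at 6 h and 52 at 24 h passed 0.5 on the log2 scale. With the plate as a term, 4 at 6 h and 55 at 24 h passed 0.5, and 1 and 2 reached 2-fold. Shares of all genes past these sizes are not given here. At 24 h the largest numbers came from deacetylase inhibitors in βTC3 cells. ITF-2357 had 35 genes higher and 2 lower there (21.3% and 19% of all genes), with a median change of 0.22. PXD101 had 34 higher and 2 lower (22.5% and 19.8% of all genes), and apicidin 29 higher and 3 lower (18.7% and 17.4%), or 14 in all without replicate 1 and 20 without replicate 2 or 3. In αTC1 cells MS-275 had 1 higher and 27 lower (18.2% and 19.5% of all genes), with a median of -0.17. BIX-01294, AMI-1, RG-0108, scriptaid, BRD8451, BRD-K62233722 and BRD-K92415738 had none past the adjusted limma test in either line at 24 h. Of all genes, 1.6% passed with BIX-01294 in αTC1 cells and 1.2% in βTC3 cells, 0.423% and 0.0508% with scriptaid, 0.263% and 2.63% with BRD8451, 0.00847% and 0.0932% with BRD-K62233722, 0.534% and 1.02% with BRD-K92415738, and 0% in both lines with AMI-1 and RG-0108. At an unadjusted p under 0.05 they had between 0 and 5 genes in αTC1 cells, and in βTC3 cells between 0 and 5 except BRD-K62233722 with 15. The share of all genes at that unadjusted threshold is not given here, so these counts cannot be read as particular to ribosomal protein genes.

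**Figure D2:**
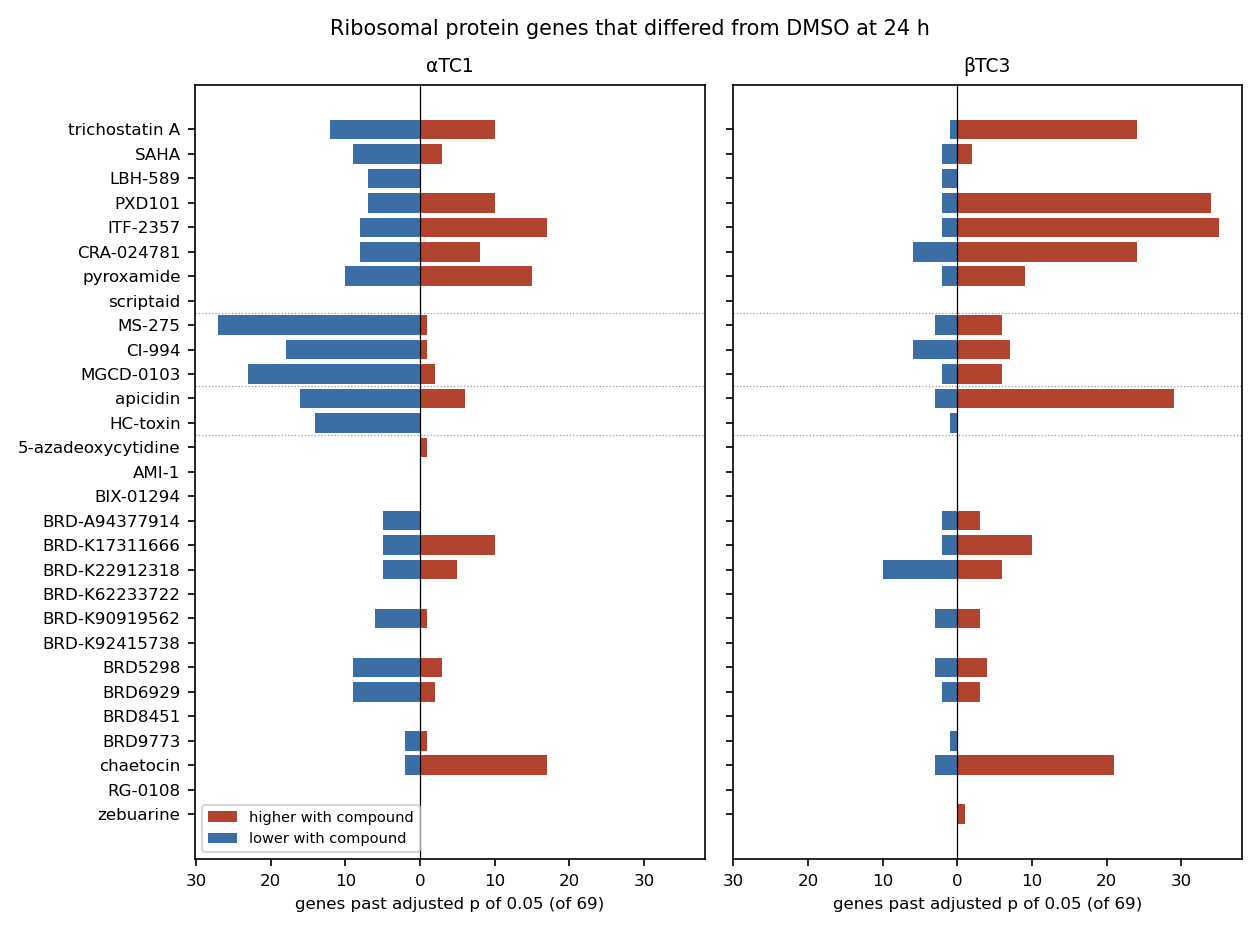
Number of the 69 ribosomal protein genes past an adjusted p of 0.05 against DMSO at 24 h (x axis) for each compound (y axis), in αTC1 cells (left) and βTC3 cells (right). Higher genes are red and lower genes blue, and ITF-2357, PXD101 and apicidin have 35, 34 and 29 higher genes in βTC3 cells, while MS-275 has 27 lower genes in αTC1 cells.

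With the 8 hydroxamic acids as a class at 24 h, ribosomal protein genes moved both ways in αTC1 cells and mostly up in βTC3 cells. In αTC1 cells 14 rose and 17 fell, against 26.1% and 24.3% of all genes, and the median change was 0.00 on 2 decimals (-0.003). In βTC3 cells 26 rose and 4 fell, against 22.5% and 20.7% of all genes, with a median of 0.09 against 0.01 for all genes. With the plate as a term the counts were 21 and 17 in αTC1 cells, and 35 and 7 in βTC3 cells. Centring each array on its median turned the αTC1 split to 7 higher and 26 lower, since it moved all genes by -0.066 and left the ribosomal protein genes' median relative to all genes at -0.006. Centring takes 1 value from every gene of an array, so it cannot change that relative median. The centred counts below carry the shift of all genes. In the 7 batches taken 1 at a time, the family median of compound minus DMSO arrays lay between -0.09 and 0.11 in αTC1 cells and between -0.08 and 0.25 in βTC3 cells. The βTC3 values were 0.008, -0.077 and 0.015 in batches 4, 5 and 6. They were 0.254, 0.09, 0.125 and 0.191 in batches 7, 8, 9 and 10, with 1 DMSO array each in batches 8 and 9. No batch held all 8 compounds, so compound and batch cannot be told apart in these values.

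By subunit, 12 large-subunit genes of 37 rose and 2 fell in βTC3 cells, and 11 of 23 small-subunit genes rose with none falling. In αTC1 cells, 9 large-subunit genes rose and 8 fell, and 4 small-subunit genes rose and 6 fell. Stalk genes, whose proteins bring elongation factors to the ribosome, were 2 of 3 higher in βTC3 cells and 1 of 3 lower in αTC1 cells.

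Rps10, a small-subunit protein at the side where the message enters, rose in both lines. In αTC1 cells its log2 intensity was 11.52 at the lowest, 11.78 at the median and 12.06 at the highest of 22 hydroxamic acid arrays, against 11.33, 11.53 and 11.69 of 14 DMSO arrays. In βTC3 cells the values were 11.50, 11.83 and 12.09 over 24 arrays, against 11.22, 11.52 and 11.70 over 12 DMSO arrays. The groups overlapped, but 18 of 22 and 15 of 24 compound arrays lay above every DMSO array. The change was 0.28 ± 0.034 in αTC1 cells (SE, limma adjusted p = 4.88e-11) and 0.32 ± 0.038 in βTC3 cells (2.61e-11). Counting single compounds at 6 and 24 h in both lines, Rps10 was higher in 34 of 116 comparisons (47 with the plate term) and lower in none. Of all gene comparisons, 21.4% at 6 h and 19.8% at 24 h passed in either direction. Without the plate term, 34 was the highest count of the 69 genes, shared with Rps27l. The comparisons of a line and time share their DMSO arrays.

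Rps16 and Rplp2 rose in βTC3 cells. Rps16, a small-subunit protein near the decoding site, stood at 11.43, 11.73 and 11.88 (lowest, median, highest) with hydroxamic acids, against 11.26, 11.36 and 11.63 in DMSO, a change of 0.32 ± 0.036 (adjusted p = 7.33e-12). The stalk gene Rplp2 stood at 12.09, 12.33 and 12.53 with hydroxamic acids, against 11.995, 12.10 and 12.29 in DMSO, a change of 0.24 ± 0.031 (9.58e-10). Both pairs of groups overlapped at their edges. In αTC1 cells Rps16 changed by -0.04 (adjusted p = 0.302) and Rplp2 by -0.04 (0.307), which passed no test. Rplp1, its partner in the stalk, was 0.14 higher in βTC3 cells and 0.11 lower in αTC1 cells (-0.11, adjusted p = 0.0308), and Rplp0, which anchors them, passed in neither line. The αTC1 change of Rplp1 no longer passed under 5 of 13 alternative settings (adjusted p up to 0.182).

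Rpl10 fell in βTC3 cells. This large-subunit protein joins late and lies beside the site where peptide bonds form. It stood at 11.81, 12.02 and 12.44 with hydroxamic acids, against 12.12, 12.26 and 12.43 in DMSO. Most compound arrays lay in the lower part of an overlapping range, and the change was -0.24 ± 0.030 (adjusted p = 1.34e-10). Rpl36a, Rpl36 and Rps12 rose there by 0.31, 0.27 and 0.24.

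Genes of both subunits fell in αTC1 cells. Rps13, a core protein of the small subunit, stood at 10.88, 11.13 and 11.61 with hydroxamic acids, against 11.45, 11.57 and 11.74 in DMSO, a change of -0.41 ± 0.037 (adjusted p = 1.59e-15). Rps19 stood at 11.25, 11.33 and 11.58, against 11.38, 11.61 and 11.73 in DMSO, a change of -0.25 ± 0.040 (1.1e-07). Both overlapped with DMSO only in the upper part of the compound arrays. Rpl13a, a large-subunit protein that can leave the ribosome and silence messages, changed by -0.41 ± 0.085 in αTC1 cells (3e-05) and by -0.25 ± 0.088 in βTC3 cells (0.0156), and it is among the genes that were low on plate 1. With the plate as a term these were -0.38 and -0.32, both past the test.

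With the 3 ortho-amino anilides at 24 h, ribosomal protein genes mostly fell in αTC1 cells. There 4 rose and 30 fell, against 21.2% and 22.5% of all genes, and the median change was -0.11 against -0.01 for all genes. In βTC3 cells 12 rose and 7 fell, against 22% and 21.7% of all genes, with a median of 0.01. The βTC3 split turned to 5 higher and 16 lower when arrays were centred, which moved all genes by -0.049, 7 and 11 with quantile scaling, and 13 and 16 with the plate as a term. In αTC1 cells the same settings gave 1 and 41, 5 and 27, and 4 and 34. Leaving out the arrays numbered replicate 2 gave 22 calls in αTC1 cells, against 34, and leaving out replicate 1 gave 12 calls in βTC3 cells. The family median of compound minus DMSO arrays in αTC1 cells was -0.005, -0.20 and -0.16 within the 3 batches that hold both.

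The αTC1 fall took in 14 of 37 large-subunit genes, 12 of 23 small-subunit genes, 2 of 3 stalk genes and 2 of 6 paralogs, while 2 large-subunit genes and 2 paralogs rose. The rising paralogs were Rpl22l1 and Rpl3l. Rpl3l has a mean of only 2.76, and its rise no longer passed under 6 of 12 alternative settings (0.046 to 0.267, adjusted p up to 0.715). Rpsa stood at 11.40, 11.52 and 11.89 over 8 anilide arrays, against 11.87, 12.15 and 12.37 in DMSO. The highest compound array overlapped the lowest DMSO array by a small margin, and the change was -0.55 ± 0.065 (adjusted p = 3.98e-11). Rps13 stood at 10.79, 11.17 and 11.23, against 11.45, 11.57 and 11.74 in DMSO, with no overlap and a change of -0.44 ± 0.052 (3.82e-11). Rps19 stood at 11.10, 11.26 and 11.41, against 11.38, 11.61 and 11.73 in DMSO, a change of -0.39 ± 0.055 (1.14e-08).

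Other falls in αTC1 cells were the paralog Rpl36al at -0.44, the large-subunit genes Rpl22 at -0.36, Rpl35 at -0.29 and Rpl36 at -0.27, and the stalk genes Rplp1 at -0.28 and Rplp2 at -0.19. Rpl14, read by its dim probe set, lay between 6.36 and 6.92 with anilides, against 7.02 to 7.73 in DMSO, a change of -0.75 ± 0.080. In βTC3 cells Rpl36a rose by 0.47 ± 0.082 (adjusted p = 9.57e-07), Rpl39 by 0.25 and Rplp0 by 0.21, while Rpl13a fell by 0.43 (-0.43 ± 0.114, adjusted p = 0.00127). Rps6, the S6 kinase substrate, and Rpl11 passed in neither line with either class.

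The difference between lines was tested directly as the effect in αTC1 cells minus the effect in βTC3 cells. With hydroxamic acids at 24 h it was above 0 for 2 genes and below 0 for 22, against 16.6% and 17.4% of all genes. With anilides it was above 0 for none and below 0 for 27 (14.1% and 14.5% of all genes), and with cyclic tetrapeptides for 2 and 15 (10.7% and 11.1%). With the plate term the splits were 5 and 22, 1 and 27, and 3 and 16, and quantile scaling turned the hydroxamic split to 6 and 19.

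Among the 69 genes Rps27l had the most negative line difference with hydroxamic acids, -0.64 ± 0.078 (adjusted p = 4.18e-12), followed by Rps19 at -0.43 ± 0.058 (3.12e-10), Rpsa at -0.41, Rpl14 at -0.40 and Rps16 at -0.35 ± 0.042 (1.84e-12). The dim Rpl14 probe set averaged 7.31 in DMSO-treated αTC1 cells and 4.62 in βTC3 cells, where it lay within the range of array medians (4.36 to 4.73). Whether that low level limits a fall in βTC3 cells was not tested. With anilides the values were -0.49 ± 0.099 for Rps27l (2.52e-05), -0.46 for Rpl36a, -0.39 for Rps19, -0.38 for Rps13 and -0.32 for Rpsa. Rpl22l1 went the other way with hydroxamic acids, at 0.63 ± 0.111 (1.02e-06). Rpl13a fell in both lines, and its line difference was -0.15 (95% interval -0.39 to 0.09) with hydroxamic acids and -0.09 (-0.40 to 0.22) with anilides.

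**Figure D3:**
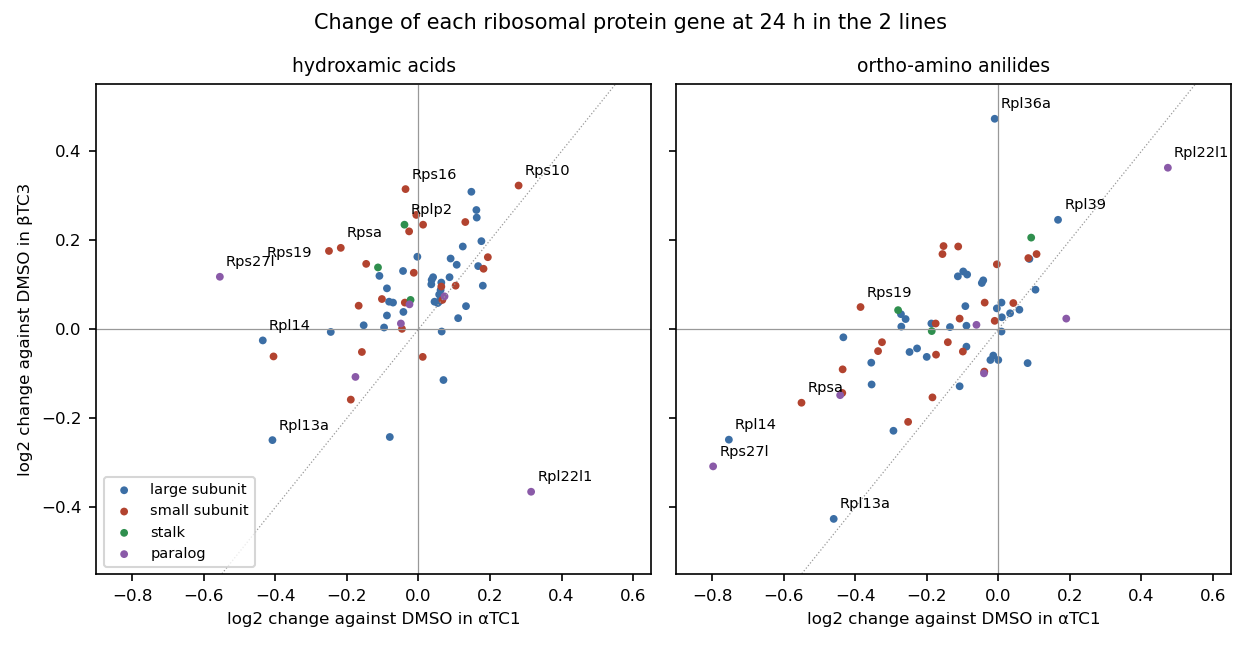
Change against DMSO at 24 h (log2) of each of the 69 genes in αTC1 cells (x axis) and βTC3 cells (y axis), with hydroxamic acids (left) and ortho-amino anilides (right), coloured by role, with a dotted line of equal change. Most points lie above the line, and Rps27l is far to the left (-0.56 and -0.80 in αTC1 cells).

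Hydroxamic acids and anilides both inhibit histone deacetylases but bind the zinc of the active site through different groups. Which of these enzymes each class inhibited in these cells was not tested. At the doses used, which differ between compounds, the effect of hydroxamic acids minus that of anilides at 24 h was positive for 28 genes and negative for none in αTC1 cells, against 14.2% and 13.4% of all genes. In βTC3 cells it was positive for 20 and negative for 3 (16.2% and 16.3%). With the plate as a term the counts were 40 and 1, and 30 and 5. The anilide arrays were in batches 4 to 6 in αTC1 cells, and in batches 4 to 6 and 10 in βTC3 cells. The hydroxamic acid arrays were in batches 4 to 10 in both lines, so the classes shared only some batches. Rpl36, a large-subunit protein, differed by 0.43 ± 0.061 in αTC1 cells (adjusted p = 2.66e-08), and Rpl35 by 0.36, Rpsa by 0.33 and Rps2 by 0.23. In βTC3 cells Rps27l differed by 0.43 ± 0.055 (1.18e-09), Rpsa by 0.35, Rps2 by 0.29 and Rplp2 by 0.24, while Rpl22l1 differed by -0.73 ± 0.084 (3.39e-11), Rpl39 by -0.18 and Rpl10 by -0.17.

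A matched dose of 10 µM allows 4 pairs, tested at 24 h with p-values adjusted over all genes and the 4 pairs. ITF-2357, a hydroxamic acid, was above CI-994, an anilide, in 8 genes and below it in none in αTC1 cells (10.6% and 8.3% of all genes). In βTC3 cells it was above in 19 and below in 2 (9% and 9.43%). Rpl36 stood at 11.27, 11.24 and 11.30 with ITF-2357 in αTC1 cells, against 10.70 and 10.62 with CI-994. In βTC3 cells it stood at 11.25, 11.19 and 11.23 with ITF-2357, against 10.95, 10.66 and 10.72 with CI-994. The arrays did not overlap in either line, and the difference was 0.64 ± 0.129 in αTC1 cells (95% interval 0.39 to 0.89, adjusted p = 0.000202) and 0.55 in βTC3 cells. No plate held both compounds at 24 h. In αTC1 cells the ITF-2357 arrays were on plates 2, 8 and 4, and the CI-994 arrays on 6 and 5. In βTC3 cells all ITF-2357 arrays were on plate 2, and the CI-994 arrays on plates 7, 6 and 5. Compound and plate cannot be told apart in these array values.

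Pyroxamide, another hydroxamic acid, was above CI-994 in 7 genes in αTC1 cells and in 5 in βTC3 cells, and below it in none and 2 (14.3% and 12.5% of all genes passed in either direction). Pyroxamide and CI-994 shared no plate at 24 h either. ITF-2357 and pyroxamide differed in 1 gene in αTC1 cells (4.36% of all genes): Rps27l stood at 8.66, 9.04 and 8.82 with ITF-2357, against 9.40, 9.24 and 9.15 with pyroxamide, a difference of -0.42 (95% interval -0.68 to -0.15, adjusted p = 0.0301). In βTC3 cells ITF-2357 was above pyroxamide in 6 genes and below in none (7.3% and 7.84% of all genes), led by Rpl36 at 0.37, Rps12 at 0.35 and Rpl8 at 0.30. The plate term raised this count to 23. 5-azadeoxycytidine against zebuarine gave 2 higher and 1 lower in αTC1 cells and none in βTC3 cells (7.91% and 1.62% of all genes), and none in αTC1 cells with the plate term.

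At 6 h the hydroxamic acids had raised 11 genes and lowered 2 in αTC1 cells (26.6% and 24.3% of all genes) and raised 12 and lowered 3 in βTC3 cells (26.2% and 24%), or 9 and 2, and 18 and 5, with the plate term. Centring moved the median of all genes by -0.13 in αTC1 cells and left none higher and 36 lower there, and 5 genes in all passed there without replicate 2 and 6 without replicate 3. Rps10 was already higher by 0.17 in αTC1 cells (adjusted p = 4.67e-05) and by 0.15 in βTC3 cells. In βTC3 cells Rps12, Rplp2, Rps2 and Rps16 were higher by 0.17 to 0.18, while Rpl13a changed by -0.36, with 20 of 24 compound arrays below every DMSO array. The anilides raised 8 genes and lowered none in αTC1 cells (12.7% and 13.9% of all genes), with Rpl22l1 at 0.37, Rpl14 at 0.27 and Rps20 at 0.24, and raised 5 and lowered 1 in βTC3 cells (12.9% and 16.5%), or 10 and 0, and 2 and 1, with the plate term. The αTC1 anilide count was 2 without replicate 2 and 3 without replicate 3. The βTC3 anilide count was 3, 1 and 2 without replicate 1, 2 and 3, and centring gave 18 higher and none lower.

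The αTC1 fall with anilides came between the 2 later times. The 24 h effect minus the 6 h effect was below 0 for 32 genes and above 0 for none in αTC1 cells (17.4% and 18.3% of all genes), and below 0 for 8 and above 0 for 1 in βTC3 cells (13% and 16.5%). With the plate term it was below 0 for 39 and above 0 for 2 in αTC1 cells, and for 18 and 3 in βTC3 cells. Rps27l had -0.83 ± 0.086 in αTC1 cells (adjusted p = 1.79e-15), and Rps13 and Rpsa had -0.51, Rpl36 -0.42 and Rps19 -0.35. With hydroxamic acids it was below 0 for 14 and above 0 for 5 in αTC1 cells (16.5% and 13.3% of all genes), and below 0 for 3 and above 0 for 10 in βTC3 cells (17.5% and 16.1%), or 19 and 7, and 5 and 14, with the plate term.

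Single compounds of a class gave different numbers. In βTC3 cells at 24 h trichostatin A and CRA-024781 each had 24 genes higher (15% and 21.1% of all genes), pyroxamide 9 (14.2%), SAHA 2 (7.36%) and LBH-589 and scriptaid none (3.92% and 0.0254%). In αTC1 cells ITF-2357 had 17 higher and 8 lower (25.9% and 20.3% of all genes), or 5 and 17 when arrays were centred, and 15 in all without replicate 1 and 11 without replicate 2, and pyroxamide 15 and 10 (20.9% and 20.3%). Among anilides in αTC1 cells MGCD-0103 had 2 higher and 23 lower (16.1% of all genes each way) and CI-994 1 and 18 (15.2% and 16.2%). The cyclic tetrapeptides together gave 5 higher and 18 lower in αTC1 cells (17.8% and 18.2% of all genes) and 17 and 1 in βTC3 cells (13.1% and 12.4%), or 11 and 19, and 18 and 5, with the plate term. Rps27l changed by -0.65 ± 0.082 (adjusted p = 9.22e-10) and Rps13 by -0.40 in αTC1 cells, and Rps16 by 0.25 and Rpl10 by -0.22 ± 0.044 (3.1e-05) in βTC3 cells.

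Paralogs were among the genes that moved furthest. Rps27l, a form of Rps27 that p53 induces, stood at 8.61, 8.94 and 9.07 with anilides in αTC1 cells and at 8.66, 9.13 and 9.73 with hydroxamic acids, against 9.41, 9.70 and 9.87 in DMSO. No anilide array overlapped DMSO, and the changes were -0.80 ± 0.078 (adjusted p = 4.67e-14) and -0.56 ± 0.056 (8.96e-14). Rps27l was lower with 18 of 29 compounds at 24 h in αTC1 cells, which share their DMSO arrays. Over both lines, 19.8% of all gene comparisons at 24 h passed in either direction. In βTC3 cells Rps27l stood at 8.64, 8.93 and 9.23 with anilides and at 9.04, 9.35 and 9.86 with hydroxamic acids, against 8.93, 9.29 and 9.45 in DMSO. These groups overlapped, and the classes went opposite ways there, at -0.31 ± 0.061 (1.31e-05) and 0.12 ± 0.047 (0.0325). The rise with hydroxamic acids no longer passed under 5 of 13 alternative settings, with values from 0.082 to 0.164 and adjusted p up to 0.202.

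Rpl22l1, which can replace Rpl22, stood at 10.22, 10.47 and 10.64 with anilides in αTC1 cells, against 9.70, 9.96 and 10.19 in DMSO, with no overlap and a change of 0.47 ± 0.083 (adjusted p = 1.45e-06). With hydroxamic acids it changed by 0.32 ± 0.060 in αTC1 cells (5.42e-06) and by -0.37 ± 0.071 in βTC3 cells (1.12e-05). In βTC3 cells anilides gave 0.36 ± 0.092 (0.000675), with arrays at 8.61, 9.39 and 9.63 against 8.01, 9.04 and 9.69 in DMSO, and 0.20 (0.41) without a batch term. Rpl22 itself changed by -0.36 with anilides in αTC1 cells. Rpl39l passed in no class at 24 h.

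**Figure D4:**
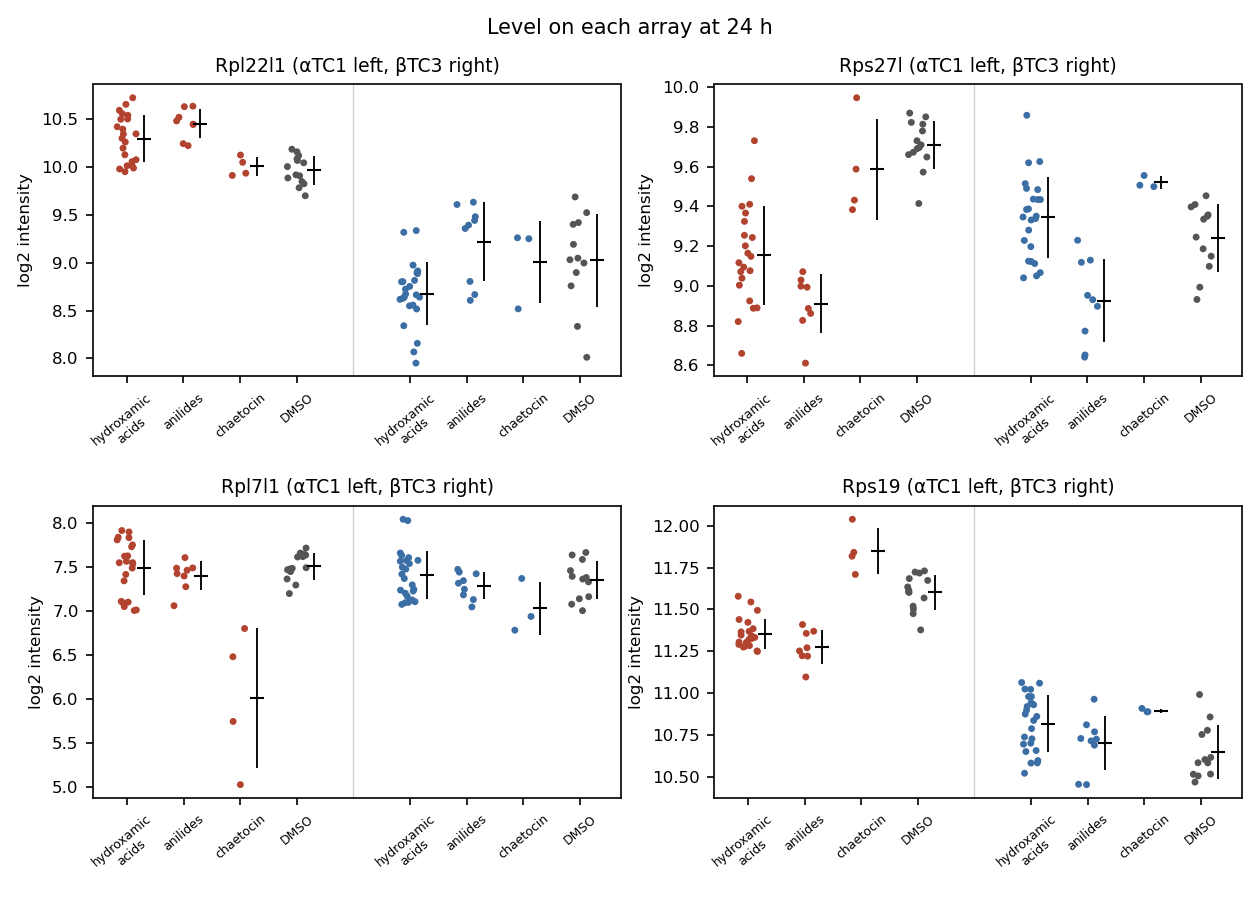
Log2 intensity (y axis) of Rpl22l1, Rps27l, Rpl7l1 and Rps19 on every array at 24 h with hydroxamic acids, ortho-amino anilides, chaetocin and DMSO, in αTC1 cells (left of each panel) and βTC3 cells (right), with bars of mean ± SD. In αTC1 cells every anilide array of Rps27l (8.61 to 9.07) lies below every DMSO array (9.41 to 9.87).

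Chaetocin, a fungal product, gave the largest change of any member. Rpl7l1 resembles Rpl7 and its yeast relative acts in the nucleolus in large-subunit assembly. At 6 h in αTC1 cells its log2 intensity was 5.82, 6.00 and 5.47 with chaetocin, against 7.15, 7.60 and 7.97 (lowest, median, highest) in DMSO. At 24 h it was 5.74, 5.02, 6.48 and 6.80, against 7.20 to 7.71 in DMSO. The arrays did not overlap at either time, and the changes were -1.79 ± 0.112 (adjusted p = 5.94e-23) and -1.55 ± 0.162 (6.55e-13). The other Rpl7l1 probe set gave -1.95 at 6 h and -1.29 at 24 h in αTC1 cells. In βTC3 cells the 6 h arrays were 6.62, 6.72 and 6.63, against 7.37 to 7.85 in DMSO (-0.997 ± 0.105, 4.5e-12), and the 24 h change of -0.25 ± 0.124 did not pass (0.13).

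Most other genes that passed with chaetocin at 24 h were higher: 17 genes were higher and 2 lower in αTC1 cells (23.4% and 24.5% of all genes) and 21 and 3 in βTC3 cells (15.4% and 15.5%), with 13 and 4 in βTC3 cells when arrays were centred. In αTC1 cells the plate term gave 32 and 3, and centring and the plate as a random block gave 30 in all each. In all, 9 passed in αTC1 cells without replicate 2, and in βTC3 cells 8 without replicate 1 and 10 without replicate 2. In αTC1 cells the small-subunit genes Rps20 and Rps12 rose by 0.39 and 0.37 and the stalk gene Rplp1 by 0.30. In βTC3 cells Rpl12 rose by 0.46, Rpsa by 0.39, Rps20 by 0.36 and Rps2 by 0.31. Rpl36al changed there by -0.43, the dim Rpl14 probe set by -0.42 and Rpl10 by -0.27. For Rpl22 in αTC1 cells the probe set used gave 0.22 and a dimmer one -1.14, and their mean -0.46. For Rps20 in αTC1 cells other, dim probe sets (means 3.67 and 2.82) gave -0.21 and -0.37. For Rpsa in βTC3 cells a dim one (3.33) gave -0.32. Under the alternatives the lowest values were 0.055 for Rps20 in αTC1 cells and 0.036 for Rpsa in βTC3 cells. Other probe sets were set against called changes of their gene in 143 pairings, in which a probe set can recur. In 12 of these the other probe set went the opposite way by over 0.1. At 6 h, 5 were higher and 1 lower in αTC1 cells (15.8% and 16.9% of all genes), with 24 and 1 when arrays were centred 15 and 1 with the plate as a term, and 2 and 3 in all without replicate 2 and 3. In βTC3 cells 2 were higher and 9 lower (11.7% and 11.9%), and 1 of the 3 arrays was on plate 1. That plate held no DMSO array of this line and time. Without plate 1 none was higher and 1 lower, and in all 1 passed without replicate 1 and 2 without replicate 3.

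With BIX-01294 in βTC3 cells at 6 h, 12 genes were lower and none higher than in DMSO (5.73% and 5.3% of all genes), led by Rps15. Its 3 arrays stood at 10.19 on plate 1, 10.57 on plate 7 and 11.43 on plate 5, against 11.26 to 11.73 in DMSO, a change of -0.74 ± 0.163 (adjusted p = 0.000933). Rpl11 and Rpl13a changed by -0.69 and -0.51. These genes and Rps15 are among those that were low on plate 1, which held no DMSO array of this line and time. Compound and plate cannot be told apart for the array on plate 1. The count was 3 without replicate 1 and 0 without replicate 3. Without plate 1 it was 5, and without plates 1 and 7 it was 0. Pyroxamide in αTC1 cells at 6 h had 6 higher and 20 lower (21.4% and 18.5% of all genes), with all 3 arrays on plate 1, and 9 to 11 in all without 1 replicate. The plate term gave 2 and 1, quantile scaling 10 and 14, and centring, which moved the median of all genes by -0.17, none and 44.

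With hydroxamic acids and with anilides, genes that build ribosomes moved further than the genes of the ribosome itself in αTC1 cells. At 24 h, 31 of 33 genes of ribosome biogenesis fell and none rose with hydroxamic acids, with a median of -0.58 against 0.00 for all genes, and 31 fell with anilides, with a median of -0.86. In βTC3 cells 5 rose and 10 fell with hydroxamic acids (-0.07) and 4 and 19 with anilides (-0.26). Nop56, a small nucleolar ribonucleoprotein subunit, changed by -1.24 ± 0.077 in αTC1 cells with hydroxamic acids (adjusted p = 2.51e-23), and Fbl, the methylase fibrillarin, by -0.54. Mitochondrial ribosomal protein genes were 12 higher and 46 lower of 70 with hydroxamic acids (-0.36) and 2 and 52 with anilides (-0.63) in αTC1 cells. In βTC3 cells they were 18 and 23, and 9 and 47.

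The translation factors whose messages carry the same pyrimidine tract moved both ways, with 4 of 15 higher and 4 lower with hydroxamic acids and 4 and 6 with anilides in αTC1 cells, and 7 and 2, and 4 and 1, in βTC3 cells. Eef2, an elongation factor, rose by 0.31 with hydroxamic acids in αTC1 cells and by 0.43 with anilides in βTC3 cells. Of 13 mTOR signalling genes, 1 rose and 6 fell with hydroxamic acids and 2 and 6 with anilides in αTC1 cells, and 4 and 5, and 5 and 4, in βTC3 cells. Of 8 MYC genes, 4 rose and 3 fell with hydroxamic acids and 3 and 1 with anilides in αTC1 cells, and 3 and 2 with each in βTC3 cells. Myc, an activator of ribosomal genes, rose by 0.33 and 1.15 in αTC1 cells, by 0.58 with anilides in βTC3 cells, and by 3.04 ± 0.166 with chaetocin in βTC3 cells (adjusted p = 1.53e-25). Beside these counts stand the shares of all genes that rose and fell, 26.1% and 24.3% with hydroxamic acids and 21.2% and 22.5% with anilides in αTC1 cells, and 22.5% and 20.7%, and 22% and 21.7%, in βTC3 cells. The part of these genes in the ribosomal protein changes was not tested.

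**Figure D5:**
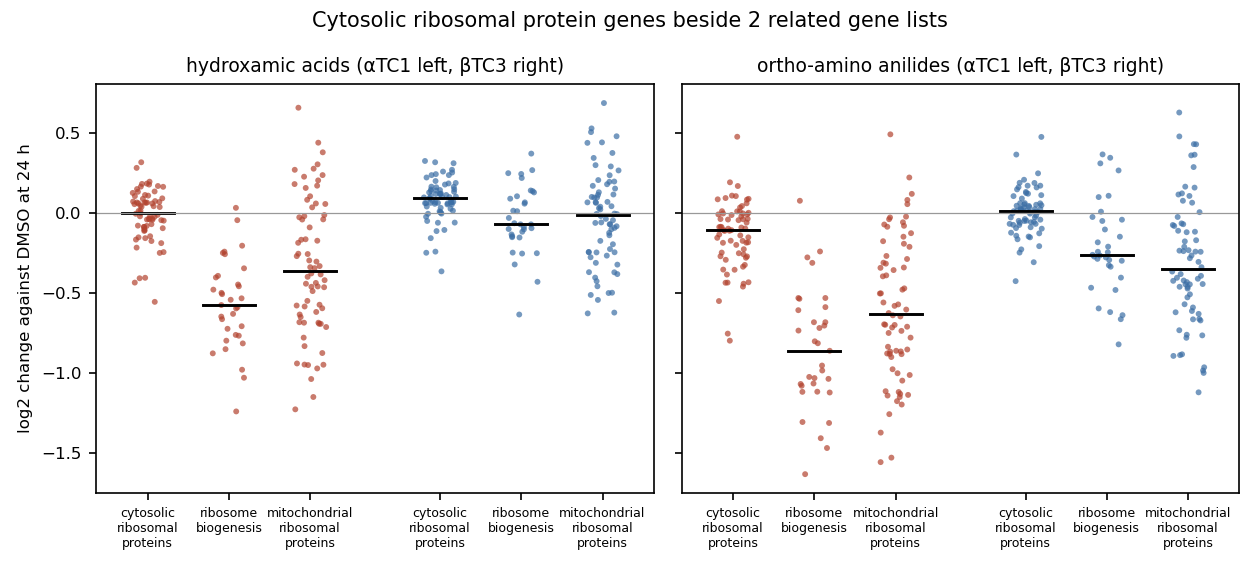
Change against DMSO at 24 h (log2, y axis) of each gene of the cytosolic ribosomal proteins, ribosome biogenesis and mitochondrial ribosomal proteins, with a line at the median, for hydroxamic acids (left panel) and ortho-amino anilides (right panel), αTC1 left of βTC3. In αTC1 cells with anilides the medians are -0.11, -0.86 and -0.63.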

How the data were processed

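The deposited table holds linear intensities for 22716 probe sets on 594 arrays. Per the submitters' processing notes, RMA was the authors' method, and its version is not given in the sources used here. The intensities ran from 3.9617 to 13635 and were turned to log2, with no further scaling. Of the probe sets, 18003 carry 1 gene symbol, 287 several and 4426 none in the annotation, and the probe set of highest mean stood for each of 11807 genes. Of the 69 genes analysed, 34 have more than 1 such probe set and 18 are read by a probe set whose name marks possible cross-hybridisation (x_at), so near-identical copies of ribosomal protein genes can share signal.

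Arrays were grouped by line, compound and time from the labels. For each line and time, limma 3.58.1 in R 4.3.3 fitted all 30 groups with the batch number (4 to 10) as a fixed term, and p-values were adjusted over all genes by Benjamini-Hochberg with a threshold of 0.05. Classes were contrasts with equal weight per compound. Differences between lines, times and compounds were contrasts in fits over the groups involved. Values after ± are standard errors unless marked SD. The number of arrays limits the precision. The procedure was tested on simulated data.

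The 69 genes and the lists of related genes were chosen with earlier results of these data known. Named genes are the paralogs, stalk and best-known members, the 3 largest rises and falls per line for each class, chaetocin and BIX-01294 at 6 and 24 h, the 3 largest line differences in DMSO each way, and up to 3 genes of each related list. The replicate numbers were not used to pair samples: over 22 pairs of compound groups their deviations correlated between -0.51 and 0.31, and 5 of the 22 exceeded 0.1. Alternatives were no batch term, median centring, quantile scaling, the mean of all probe sets, leaving out dim genes, other sets of arrays and, chosen after seeing the data, the plate as a term and leaving out plates.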

Additional observations from a re-analysis of the deposited data

Results flagged for a closer look

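The check for 1 array far from the others covered only groups of 4 to 10 arrays. These were chaetocin at 24 h in αTC1 cells (4 arrays) and DMSO at 6 h in βTC3 cells (10 arrays). In 24 checks there, of the family median and of named genes, no array lay far from the others. The 168 compound groups of 3 arrays, the 5 of 2 and the larger DMSO groups were not checked. The effect of a class or of chaetocin differed between the lines by the interaction test for 38 of 84 comparisons of named genes, 29 below and 9 above 0. Named genes include the largest rises and falls within a line in these same data, so the count describes that selection only. Of all genes at 24 h, 17.4% were below and 16.6% above 0 with hydroxamic acids. With anilides the shares were 14.5% and 14.1%, and with cyclic tetrapeptides 11.1% and 10.7%. With the plate as a term 37 of the 38 also passed, all but Rpl22l1 with chaetocin at 6 h. With batch terms separate for each line, which were not run for the cyclic tetrapeptides, 32 passed, and Rps12 with hydroxamic acids at 6 h and Rpl36al with chaetocin at 24 h did not. Each value below is the αTC1 effect minus the βTC3 effect on the log2 scale.

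With hydroxamic acids at 24 h the differences were -0.641 for Rps27l, -0.428 for Rps19, -0.406 for Rpsa, -0.398 for Rpl14, -0.35 for Rps16, -0.336 for Rps13, -0.278 for Rplp2, -0.248 for Rplp1 and -0.233 for Rps12. Above 0 they were 0.627 for Rpl22l1 and 0.157 for Rpl10. With ortho-amino anilides at 24 h they were -0.486 for Rps27l, -0.461 for Rpl36a, -0.439 for Rpl14, -0.386 for Rps19, -0.38 for Rps13, -0.325 for Rplp1, -0.32 for Rpsa, -0.307 for Rpl36, -0.267 for Rpl22, -0.263 for Rpl36al and -0.167 for Rplp2. The Rpl14 values of both classes come from its dim probe set. With cyclic tetrapeptides at 24 h they were -0.717 for Rps27l, -0.248 for Rps13, -0.244 for Rps16 and 0.161 for Rpl10.

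With hydroxamic acids at 6 h they were -0.176 for Rps13, -0.147 for Rplp2, -0.145 for Rps16 and -0.124 for Rps12, and above 0 they were 0.304 for Rpl7l1 and 0.112 for Rpl10. With chaetocin Rpl7l1 differed by -0.922 at 6 h and by -1.25 at 24 h. Above 0 with chaetocin were Rpl22l1 at 6 h (0.46), and Rpl22 (0.404, with its other probe set going the opposite way in αTC1 cells), Rpl36al (0.304) and Rps12 (0.292) at 24 h.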

How the results depend on the processing

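With the mean of all probe sets Rpl22 with chaetocin at 24 h in αTC1 cells turned to -0.462, and Rps6 with hydroxamic acids at 24 h in αTC1 cells, which had not passed, to -0.081 (adjusted p = 0.0325); these averages hold dimmer probe sets. No other result of a named gene reversed under the alternatives tried, while the family median changed sign under at least 1 of them for hydroxamic acids at 6 and 24 h, ITF-2357 at 24 h and pyroxamide at 6 h in αTC1 cells, and for anilides at 6 and 24 h and chaetocin at 6 h in βTC3 cells. Of the named genes' results, 1387 kept their side of the threshold, 146 lost it and 25 gained it, and of the counts 172 stayed within 1.5 times the reported number and 86 did not. The cause of these moves was not tested.

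For hydroxamic acids at 6 h in αTC1 cells the count was 36 with centring (median -0.105) and 7 with only the arrays compared, and in βTC3 cells 23 with the plate term and 23 without plates 1 and 7. For anilides at 6 h in αTC1 cells it was 5 with quantile scaling, 17 with the mean of probe sets and 3 with only the arrays compared. In βTC3 cells it was 11 without a batch term, 18 with centring, 12 with the mean of probe sets, 1 with only the arrays compared, and 3 with the plate term or without plates 1 and 7. For anilides at 24 h the αTC1 median was -0.203 with centring, and the βTC3 count was 9 with only the arrays compared and 29 with the plate term.

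For chaetocin in αTC1 cells the 6 h count was 25 with centring, 3 with quantile scaling, 12 with the mean of probe sets, 2 with only the arrays compared, 12 with the plate as a random block and 16 with the plate term. At 24 h these were 30 with centring, 29 without a batch term, 12, 30 and 35 (only the arrays compared, random block, plate term). In βTC3 cells at 6 h it was 2 without a batch term, 7 with centring, 2 with only the arrays compared, 2 with the random block, 3 with the plate term (median 0.009), 1 without plate 1 (median 0.041) and 1 without plates 1 and 7 (median 0.044). At 24 h it was 6 with only the arrays compared.

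ITF-2357 at 24 h in αTC1 cells had a median of -0.014 with centring, which moved all genes by -0.098 and left the median relative to all genes at 0.042. With only the arrays compared the counts were 12 for ITF-2357 in αTC1 cells, 16 in βTC3 cells and 14 for apicidin in βTC3 cells. BIX-01294 at 6 h in βTC3 cells gave 3 without a batch term, 6 with centring, 20 without dim genes, 6 with only the arrays compared, 5 without plate 1 and 0 without plates 1 and 7. Pyroxamide at 6 h in αTC1 cells gave 44 with centring (median -0.212), 14 with only the arrays compared, and 3 with the plate term or random block. With the plate term, ITF-2357 against CI-994 gave 15 in αTC1 and 34 in βTC3 cells, pyroxamide against CI-994 13 in αTC1 cells, 5-azadeoxycytidine against zebuarine 0 in αTC1 cells, ITF-2357 against pyroxamide 23 in βTC3 cells, anilides at 24 h minus 6 h 21 in βTC3 cells, and hydroxamic acids minus anilides at 24 h 35 in βTC3 cells.

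With the replicate number as a block, which did not pair the samples, ITF-2357 against pyroxamide, ITF-2357 against CI-994 and pyroxamide against CI-994 gave 0 genes each in αTC1 cells, and 0, 5 and 0 in βTC3 cells. Leaving out 1 replicate number at a time gave 5 to 9 (6 h) and 25 to 31 (24 h) for hydroxamic acids in αTC1 cells and 12 to 15 and 27 to 33 in βTC3 cells, 2 to 8 and 22 to 27 for anilides in αTC1 cells and 1 to 3 and 12 to 14 in βTC3 cells. It gave 2 to 5 and 9 to 17 for chaetocin in αTC1 cells and 1 to 9 and 8 to 16 in βTC3 cells. At 24 h it gave 11 to 17 for ITF-2357 in αTC1 cells, 26 to 31 in βTC3 cells and 14 to 20 for apicidin in βTC3 cells, and at 6 h 0 to 17 for BIX-01294 in βTC3 cells and 9 to 11 for pyroxamide in αTC1 cells.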
